A study of Mus musculus with 10 samples.

Results

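Lyz1, Mmp7, Ang4, Itln1, Pla2g2a, Mptx1 and Mptx2 are 7 genes whose products belong to the antimicrobial secretions of mouse Paneth cells. They were taken by symbol from the 24062 gene symbols counted in each library, and all 7 had enough counts to be tested. Their levels were compared between the jejunum of WT and KSR23 mice at postnatal day 5, with 5 libraries in each group. WT mice were the wild-type controls of the study, which used C57BL/6 mice and usually took littermates as controls. KSR23 mice came from a cross of R23 mice, backcrossed to C57BL/6, with mice whose cre recombinase is driven by the keratin 14 (K14) promoter. R23 mice carry a cassette for the p19 and p40 subunits of IL-23, placed in ROSA26 behind a STOP signal flanked by loxP sites. Whether WT mice carried the cassette or the cre alone is not given. The cre is therefore active in keratinocytes and other K14-expressing epithelia rather than in the intestinal epithelium by design, and what was measured here is RNA of the whole jejunum. The comparison asks how IL-23 expressed from K14+ cells goes together with intestinal gene expression in the neonate.

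Paneth cells sit at the base of the crypts of the small intestine, beside the stem cells, and release granules with antimicrobial proteins into the crypt lumen. In mice the crypts form after birth and recognizable Paneth cells accumulate over the first weeks of life, so that the jejunum of a suckling pup holds few of them. Lyz1 encodes the lysozyme of Paneth granules, and Mmp7 encodes matrilysin, the protease that activates the mouse alpha-defensin precursors. Pla2g2a encodes a secreted phospholipase A2 that attacks bacterial membranes, Ang4 a ribonuclease of the angiogenin family, Itln1 a lectin that binds microbial glycans, and Mptx1 and Mptx2 are mucosal pentraxins.

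Library totals ran from 25.5 to 32.0 M counts in WT and from 31.2 to 60.9 M in KSR23 (M stands for 1e6 counts in genes), and the mean was higher in KSR23 (two-sided exact permutation p = 0.0238). Of the IL-23 subunit genes, Il12b (p40) had a mean of 0.109 CPM in WT and 0.553 CPM in KSR23 jejunum (adjusted p = 0.00364), and Il23a (p19) had 0.230 and 0.450 CPM (adjusted p = 0.27) with overlapping libraries. Replicates 4 and 5 of both groups differed from replicates 1 to 3, in that they mostly lay between the others. Each of replicates 4 and 5 held the highest or lowest value of its group in 8.75 to 14.7% of 9766 genes. The share was 48.9 to 68.1% for each of the others, and it would be 40% if the 5 libraries were exchangeable. The labels do not say how these libraries were made, and whether the 5 libraries of a group are independent was not tested. If they are not, the SDs, SEs and p-values given for n = 5 may be too small. The results of the 7 genes and the count of each gene list are therefore also given for replicates 1 to 3 alone. Levels are given as CPM (counts scaled to a TMM-adjusted library total of 1e6), and differences as log2 fold changes of KSR23 over WT with their standard error (SE) and the adjusted p of the edgeR likelihood ratio test.

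All 7 genes passed the test, 5 of them higher in KSR23 (Lyz1, Mmp7, Itln1, Pla2g2a and Mptx2) and 2 lower (Ang4 and Mptx1). Among all 17632 genes tested, 18.5% passed, 9.73% higher and 8.76% lower (1716 and 1545 genes; with upper-quartile scaling, which moved the median of all genes to -0.13, 1137 and 1779). The median log2 fold change was 2.88 over the 7 genes and 0.03 over all genes. With the quasi-likelihood test, which called 15.4% of all genes (8.47% higher and 6.91% lower), the count was again 5 higher and 2 lower. The 6 genes other than Ang4 passed with an absolute log2 fold change above 2, as did 5.19% of all genes. The groups did not overlap in CPM for any of the 7 genes, a separation found in 14.4% of all genes (7.41% higher and 6.99% lower). In replicates 1 to 3 alone, where 3.36% of genes passed the likelihood ratio test, 5 of the genes passed as higher and 1, Mptx1, as lower. There the quasi-likelihood test, with 0.812% of genes called, kept 5 of the 7, without Ang4 and Itln1. The log2 fold changes without replicates 4 and 5 were 3.42 for Lyz1, 2.88 for Mmp7, 4.98 for Pla2g2a, -4.09 for Mptx1 and 4.61 for Mptx2. Together the 7 genes took 0.0232 to 0.0364% of the counts of a WT library and 0.104 to 0.16% of those of a KSR23 library. In RNA of whole tissue, a change in the number of cells of a type and a change in the RNA per cell cannot be told apart.

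**Figure D1:**
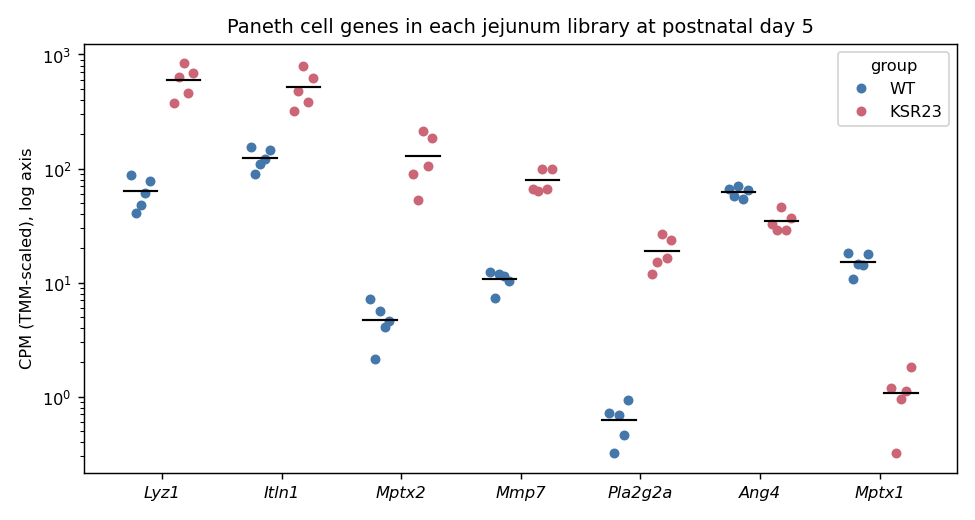
CPM of the 7 genes (log axis) in the 5 WT and 5 KSR23 libraries, 1 point for each library from replicate 1 on the left to replicate 5 on the right, with black lines at the group means. The groups do not overlap for any gene, and KSR23 lies above WT for Lyz1, Itln1, Mptx2, Mmp7 and Pla2g2a and below it for Ang4 and Mptx1.

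Lyz1 (ENSMUSG00000069515.6, chr10:117287797-117292868, minus strand, build mm10) was measured at 88.6, 41.1, 48.0, 61.5 and 78.5 CPM in WT replicates 1 to 5. In KSR23 it reached 379, 639, 834, 464 and 692 CPM. The lowest KSR23 library was thus far above the highest WT library, although WT libraries already held 1162 to 2862 counts of it. The mean rose from 63.6 ± 20.0 to 602 ± 182 CPM (SD, n = 5 each), which corresponds to 3.24 on the log2 scale (SE 0.31, adjusted p = 4.03e-19) or 9.47-fold.

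Lyz1 lies next to Lyz2 (chr10:117277331-117282321, minus strand), which encodes the lysozyme of macrophages and other myeloid cells. The longest transcripts of the pair aligned with 96.0% identity (1211 of 1262 aligned bases), while 6.22% of the 75-base stretches of Lyz1 also occurred in another gene, mainly Lyz2. A read from such a stretch has more than 1 alignment and entered no gene. Lyz2 was measured at 139 to 156 CPM in WT and at 87.4 to 153 CPM in KSR23, and it did not pass the test (log2 fold change -0.27, SE 0.25, adjusted p = 0.504). The windows before both genes were read from GRCm38.p6 to show how far the neighbours differ upstream of the transcribed part. They cover 200 bases on the minus strand, ending 50 bases before the start annotated by RefSeq (chr10:117292919-117293118 for Lyz1 and chr10:117282323-117282522 for Lyz2). Capitals mark bases that differ from, or have no partner in, the other sequence.
Lyz1: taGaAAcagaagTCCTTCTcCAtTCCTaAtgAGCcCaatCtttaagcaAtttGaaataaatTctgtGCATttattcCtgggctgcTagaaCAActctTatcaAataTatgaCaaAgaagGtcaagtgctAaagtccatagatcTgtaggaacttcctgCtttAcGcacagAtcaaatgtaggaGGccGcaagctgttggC
Lyz2: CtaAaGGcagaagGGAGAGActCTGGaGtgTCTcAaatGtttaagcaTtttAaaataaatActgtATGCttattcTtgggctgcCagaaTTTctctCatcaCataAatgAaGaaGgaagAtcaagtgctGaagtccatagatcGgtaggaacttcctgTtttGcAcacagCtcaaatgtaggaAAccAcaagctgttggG
The 2 windows matched at 150 of 198 aligned bases (75.8%), less than the transcripts. Expressed per kilobase of exon (RPKM), the ratio of Lyz1 to Lyz2 was 0.307 to 0.591 in the WT libraries and 4.34 to 5.93 in the KSR23 libraries. Lyz1 was the lower of the pair in each WT library and the higher in each KSR23 library.

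Mmp7 (ENSMUSG00000018623.9, chr9:7692090-7699585, plus strand) had 12.3, 7.39, 12.0, 11.4 and 10.4 CPM in WT and 65.8, 63.2, 98.8, 65.8 and 100 CPM in KSR23. Each KSR23 library held several times the level of any WT library. The mean rose from 10.7 ± 1.99 to 78.7 ± 19.0 CPM (SD, n = 5 each), 7.35-fold or 2.88 on the log2 scale (SE 0.29, adjusted p = 9.22e-19). An antisense gene, AV064505, overlaps 11.5% of the exon bases of Mmp7, and whether reads were counted by strand is not given in the sources used here. Reads of the pair can therefore not be told apart in that stretch. Among the other matrix metalloproteinases, Mmp3 rose from 0 to 5 counts in WT libraries to 43 to 436 in KSR23 libraries (adjusted p = 2.39e-08) and Mmp13 passed at 1.06 on the log2 scale (SE 0.37, adjusted p = 0.0273). The call of Mmp13, whose groups overlapped in CPM, was lost with upper-quartile scaling (0.88), without any 1 of WT replicates 3, 4 and 5 and KSR23 replicates 3 and 5 (0.86 to 1.12), and in replicates 1 to 3 alone (1.01, adjusted p = 0.504). Mmp10, which lies beside them on chromosome 9, did not pass (0.65, SE 0.35, adjusted p = 0.2), and neither did Mmp2 (-0.18), Mmp9 (0.03) or Mmp14 (-0.24).

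Pla2g2a (ENSMUSG00000058908.14, chr4:138831857-138835186, plus strand) was the least abundant of the 7 genes in WT, where its counts were 23, 9, 19, 16 and 25 (replicates 1 to 5). The KSR23 libraries held 827, 467, 678, 919 and 840 counts. All WT counts were above the floor of 3 counts, so the fold change rests on detected transcripts in both groups. In CPM the mean went from 0.625 ± 0.241 to 18.8 ± 6.33 (SD, n = 5 each), a 29.9-fold rise (4.90 on the log2 scale, SE 0.38, adjusted p = 3.57e-27). C57BL/6 mice are known to carry a frameshift in Pla2g2a, and the GENCODE annotation lists the gene as a polymorphic pseudogene. The counts are hence of transcript, and do not speak of a working enzyme.

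Pla2g2a lies within the bounds of Pla2g5, another secreted phospholipase A2, on the opposite strand, and the 2 genes share 0 exon bases. Pla2g5 moved from 4 to 15 counts per WT library to 727 to 995 per KSR23 library (log2 fold change 6.18, SE 0.45, adjusted p = 5.88e-31). The group IIF enzyme Pla2g2f rose as well, from 0.759 ± 0.575 to 15.6 ± 4.87 CPM (SD, n = 5 each; 4.34, SE 0.47, adjusted p = 1.74e-14). Pla2g2d (log2 fold change 2.17) and Pla2g2e (2.02) passed the likelihood ratio test, though Pla2g2d overlapped between the groups in CPM and Pla2g2e did not pass the quasi-likelihood test (adjusted p = 0.0861). Neither passed in replicates 1 to 3 alone (adjusted p = 0.173 and 0.442), and Pla2g2e did not without any 1 of WT replicates 1 and 5 and KSR23 replicates 3 and 5 (1.75 to 1.89 on the log2 scale). Pla2g2c (-0.28), Pla2g1b (-1.02) and Pla2g10 (0.79) did not pass. Among further paralogs of the 7 genes, Lyzl4 (-0.17), Crp (0.08) and Apcs (1.19) did not pass either (adjusted p from 0.371 to 0.977). Of 20 paralogs of the 7 genes that were tested, 6 were higher (the 4 phospholipases, Mmp3 and Mmp13), 0 were lower and 14 did not pass, with a median log2 fold change of 0.06, where 9.73% of all genes were higher and 8.76% lower. In replicates 1 to 3 alone, where 3.36% of all genes passed, 3 of them passed (Pla2g5, Pla2g2f and Mmp3), the last not by the quasi-likelihood test (adjusted p = 0.121).

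Mptx1 and Mptx2 moved in opposite directions. Mptx1 (ENSMUSG00000026531.4, chr1:174330518-174332873, plus strand) was measured at 18.2, 10.7, 14.6, 14.3 and 17.9 CPM in WT and at 1.19, 0.322, 0.954, 1.13 and 1.81 CPM in KSR23. In counts this was 302 to 589 per WT library and 10 to 84 per KSR23 library, although the KSR23 libraries were deeper on average. The mean fell from 15.2 ± 3.08 to 1.08 ± 0.532 CPM (SD, n = 5 each), 13.9-fold lower (-3.80 on the log2 scale, SE 0.39, adjusted p = 1.02e-16). Mptx2 (ENSMUSG00000079180.4, chr1:173274382-173277777, minus strand) had 7.12, 2.16, 5.69, 4.09 and 4.58 CPM in WT and 90.1, 52.7, 213, 106 and 186 CPM in KSR23. The mean rose from 4.73 ± 1.85 to 130 ± 67.5 CPM (SD, n = 5 each), 27.4-fold higher (4.77 on the log2 scale, SE 0.42, adjusted p = 9.43e-20). Within KSR23 the highest library was 4.05 times the lowest for Mptx2 and 5.60 times for Mptx1, a wider range than in the other 5 genes (at most 2.48 times).

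The pair is close in sequence. The longest transcripts matched at 734 of 794 aligned bases (92.4%), and in each gene 10.1% of the 75-base stretches occurred in another gene, mainly its partner. The windows of 200 bases before both genes are shown because the genes moved apart. They were read from GRCm38.p6, at chr1:174330318-174330517 on the plus strand for Mptx1, which ends at its RefSeq start, and at chr1:173277778-173277977 on the minus strand for Mptx2, which ends 21 bases before its RefSeq start. Capitals mark bases that differ from, or have no partner in, the other sequence.
Mptx1: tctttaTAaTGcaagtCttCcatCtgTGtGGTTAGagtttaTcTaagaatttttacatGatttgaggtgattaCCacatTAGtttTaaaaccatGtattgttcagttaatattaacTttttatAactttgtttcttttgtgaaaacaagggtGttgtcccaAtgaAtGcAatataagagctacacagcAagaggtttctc
Mptx2: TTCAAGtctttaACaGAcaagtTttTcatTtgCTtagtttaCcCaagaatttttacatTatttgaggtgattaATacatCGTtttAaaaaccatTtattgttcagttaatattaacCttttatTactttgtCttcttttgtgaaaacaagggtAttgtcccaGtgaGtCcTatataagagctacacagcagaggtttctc
These windows matched at 167 of 193 aligned bases (86.5%). Per kilobase of exon, the ratio of Mptx2 to Mptx1 was 0.393, 0.203, 0.391, 0.287 and 0.257 in the WT libraries, and 75.9, 165, 225, 93.9 and 103 in KSR23. Mptx2 thus made up 16.9 to 28.2% of the summed RPKM of the pair in WT libraries and 98.7 to 99.6% in KSR23 libraries. The pairs were compared after their values had been seen, and their ratios were not tested.

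**Figure D2:**
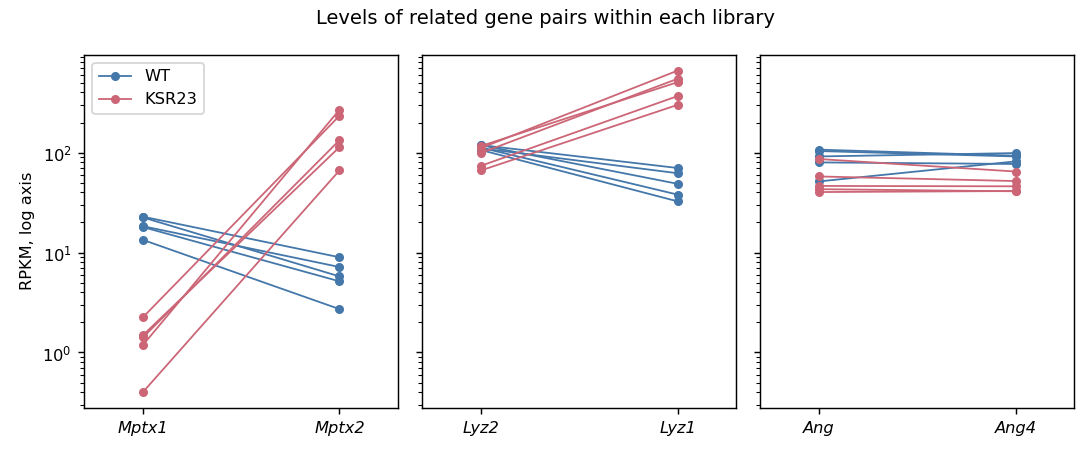
RPKM (log axis, shared by the panels) of Mptx1 and Mptx2, of Lyz2 and Lyz1, and of Ang and Ang4, with a line joining the 2 genes of a pair in each library. The lines of WT and KSR23 libraries slope in opposite directions for the pentraxins and the lysozymes, while for Ang and Ang4 the slopes are mixed within WT and within KSR23.

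Itln1 (ENSMUSG00000038209.12, chr1:171518122-171535294, minus strand) had 153, 90.0, 110, 121 and 145 CPM in WT and 319, 483, 792, 385 and 627 CPM in KSR23. The KSR23 values spread over a 2.48-fold range but remained above each WT value. The mean rose from 124 ± 25.6 to 521 ± 190 CPM (SD, n = 5 each), 4.22-fold (2.08 on the log2 scale, SE 0.30, adjusted p = 3.18e-09). Without replicates 4 and 5 the log2 fold change was 2.21, at an adjusted p of 0.00422 in the likelihood ratio test but of 0.0969 in the quasi-likelihood test.

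Ang4 (ENSMUSG00000060615.5, chr14:51763878-51773590, minus strand) was measured at 66.0, 57.9, 70.1, 54.5 and 64.9 CPM in WT and at 32.6, 29.2, 45.8, 29.1 and 36.8 CPM in KSR23. The groups did not overlap, and Ang4 was the steadiest of the 7 genes within both groups (coefficient of variation 10.1% in WT and 20.1% in KSR23). The mean fell from 62.7 ± 6.33 to 34.7 ± 6.97 CPM (SD, n = 5 each), 1.81-fold lower (-0.85 on the log2 scale, SE 0.26, adjusted p = 0.00921, or 0.0123 with the quasi-likelihood test). The call was lost in replicates 1 to 3 alone, with a log2 fold change of -0.82 and an adjusted p of 0.525, and without KSR23 replicate 4 (-0.76, adjusted p = 0.0556). Of its relatives in the ribonuclease A family, Ang (-0.66, SE 0.31, adjusted p = 0.13), Rnase1 (-0.81, SE 0.33, adjusted p = 0.0715) and Rnase4 (-0.05, SE 0.29, adjusted p = 0.933) did not pass, although Ang (-0.77) and Rnase1 (-0.93) did when scaled by library totals alone. The RPKM of Ang4 was 0.870 to 1.58 times that of Ang in WT libraries and 0.750 to 1.02 times in KSR23 libraries, ranges that overlap.

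Compared per kilobase of exon, the 7 genes changed their order between the groups. In WT the mean RPKM was highest for Itln1 (108), followed by Ang4 (88.4), Lyz1 (50.3), Mptx1 (19.0), Mmp7 (10.02), Mptx2 (5.95) and Pla2g2a (0.674). Of these neighbours, Itln1 and Ang4, and Mmp7 and Mptx2, overlapped in their libraries. In KSR23 the order of mean RPKM was Lyz1 (476), Itln1 (457), Mptx2 (163), Mmp7 (73.7), Ang4 (49.0), Pla2g2a (20.2) and Mptx1 (1.35). There Lyz1 and Itln1, Mptx2 and Mmp7, and Mmp7 and Ang4 overlapped. Ang4 moved from the second place to the fifth, Mptx1 from the fourth to the seventh, and Mptx2 from the sixth to the third.

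After subtraction of the group means, log2 CPM over the 10 libraries correlated with r from 0.12 to 0.95 over the 21 pairs of genes (median 0.72), and from 0.58 to 0.95 over the 10 pairs of the genes that rose. Mptx1 had the lowest values, with 0.12 to Lyz1 and 0.2 to Itln1. These points share the scaling of their library. In KSR23, the TMM factors of replicates 3 and 5 (0.797 and 0.866) were the lowest and those of replicates 1 and 4 (1.15 and 1.10) the highest. Lyz1, Itln1, Pla2g2a and Mptx2 had their highest CPM in replicate 3 and Mmp7 in replicate 5. The part of the scaling in these correlations was not tested. Among 12889 genes with a mean of at least 1 CPM, those closest to each gene by this measure were Cyp3a13 (r = 0.991), Traip and Ugdh for Lyz1, Prrc2b (0.944), Bcl9 and Fam183b for Mmp7, and Ubn1 (0.976), Ift172 and 1700108F19Rik for Ang4. For Itln1 they were Dctn6 (0.995), Gtf2h2 and Psmc3, for Pla2g2a Ufc1 (0.966), Cenpq and Actr6, for Mptx1 Cmah (0.958), Lrig2 and Sycp3, and for Mptx2 Alb (0.98), Ranbp9 and Rnf13. None of these 21 genes is a Paneth cell gene of the lists used here.

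Alpha-defensins (cryptdins), the peptides that Mmp7 activates, were examined as the largest family of Paneth cell products. Of 57 names considered for this family, 26 were found among the symbols counted, of which 11 had no counts in any library and 15 were tested. Those of the 11 with a gene model had 0 to 100% of their 75-base stretches in other genes, most of them 89.9% or more. Where most reads are dropped in this way, a count of 0 does not show that transcript was absent. Of the 15 tested, 10 were higher in KSR23, 0 were lower and 5 did not pass, where 9.73% of all genes were higher and 8.76% lower. Their median log2 fold change was 2.64. By the quasi-likelihood test 9 were higher, as were 8.47% of all genes. In replicates 1 to 3 alone, 5 passed as higher, and 3 with the quasi-likelihood test, where 3.36% and 0.812% of all genes passed. The most abundant of them in WT, Defa24, did not pass, with 55.5 to 132 CPM in WT and 54.9 to 139 CPM in KSR23 (log2 fold change -0.08, SE 0.34, adjusted p = 0.908), and 6.67% of its 75-base stretches occurred in another gene. Defa17 did not pass either (31.1 ± 9.36 CPM in WT against 31.8 ± 10.6 CPM, SD, n = 5 each, adjusted p = 0.965).

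Gm15284, which RefSeq lists as Defa30, rose from 34.6 ± 11.9 to 99.4 ± 41.3 CPM (SD, n = 5 each; log2 fold change 1.52, SE 0.37, adjusted p = 8.36e-04; 0.208 in replicates 1 to 3 alone). Larger rises were measured in less abundant members. Gm15315 (Defa34) rose from 2.14 ± 0.595 to 17.6 ± 5.41 CPM, Defa22 from 1.72 ± 0.609 to 16.1 ± 3.66 CPM and Defa21 from 1.46 ± 0.642 to 12.0 ± 2.74 CPM (SD, n = 5 each), with log2 fold changes between 3.03 and 3.22. Gm15293 (3.97), Gm15292 (2.84), Gm15299 (2.68), Defa3 (2.64), Defa5 (2.05) and AY761184 (1.54) rose too by the likelihood ratio test. Defa5 did not pass the quasi-likelihood test (adjusted p = 0.0651), and Gm15299 overlapped between the groups in CPM. Besides Gm15284, the genes Gm15292, Gm15299, Defa5 and AY761184 did not pass in replicates 1 to 3 alone (adjusted p from 0.0751 to 0.17). Several of these had few counts in WT. Gm15293, for example, had 0 to 7 counts per WT library and 49 to 123 per KSR23 library. Defa26 (0.77), Gm14851 (1.16) and Defa25 (0 counts in WT and 6 in a single KSR23 library) did not pass. The summed CPM of the family was 99.1 to 228 in WT libraries and 191 to 446 in KSR23 libraries, ranges that overlap. Genes of this family share long stretches (97.4% of the 75-base stretches of Defa5 and 91.3% of those of Defa17 occurred in other genes), so the counts of single members are uncertain.

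**Figure D3:**
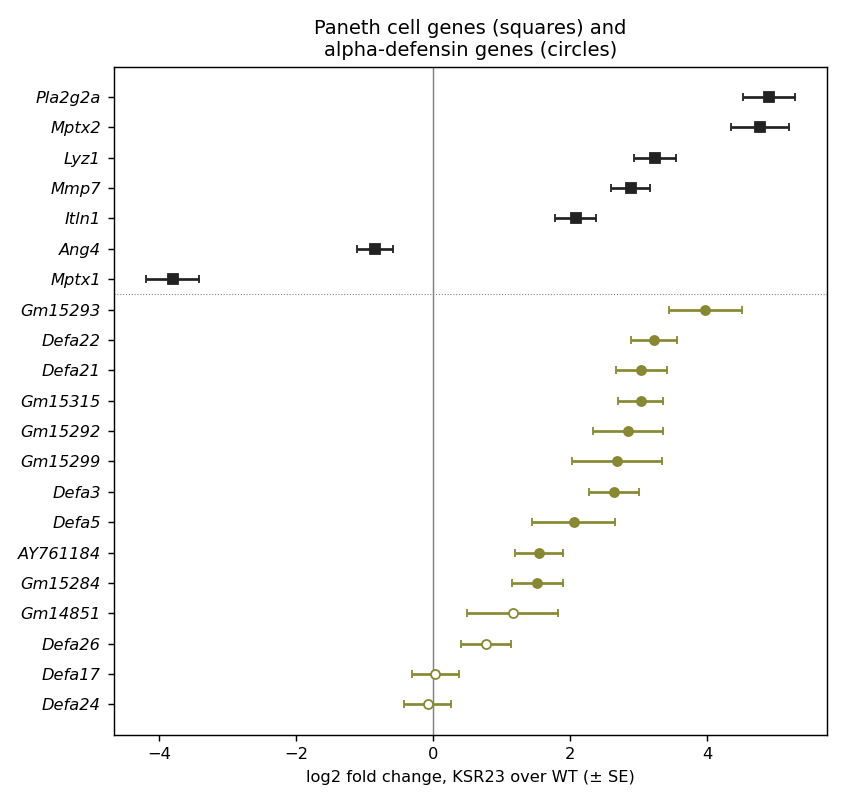
Log2 fold change of KSR23 over WT with its standard error for the 7 Paneth cell genes (squares) and 14 tested alpha-defensin genes (circles; Defa25, with no counts in WT, is left out), with filled symbols for an adjusted p under 0.05 in the likelihood ratio test. Of the squares 5 lie to the right of 0 and 2 to the left, and the open circles are Gm14851, Defa26, Defa17 and Defa24.

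Other antimicrobial genes of the gut were read beside them. Of 18 tested, with a median log2 fold change of 2.1, 12 were higher, 2 lower and 4 did not pass. Over all genes, 9.73% were higher and 8.76% lower. In replicates 1 to 3 alone 11 passed, or 4 by the quasi-likelihood test, against 3.36% and 0.812% of all genes. Reg3b and Reg3g were not among the 4 (adjusted p = 0.0727 and 0.0667). Reg3b and Reg3g, C-type lectins of enterocytes and Paneth cells, had the largest rises (7.83, SE 0.74, and 7.59, SE 0.71). Wfdc2 (-2.20, SE 0.38) and Defb1 (-2.19, SE 0.91) were the genes that fell, Defb1 from at most 6 counts per library and without passing the quasi-likelihood test. Camp, the cathelicidin of the neonatal epithelium, did not pass (-0.70, SE 0.54, adjusted p = 0.409).

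Of 24 genes for the specification of Paneth cells and for their niche, 3 were higher, 3 lower and 18 did not pass, with a median log2 fold change of 0.56. These counts are near the share of all genes that passed (9.73% higher and 8.76% lower). Bhlha15, a factor of secretory cells with large granule stores, rose from 0.601 ± 0.26 to 4.09 ± 2.59 CPM (SD, n = 5 each; 2.75, SE 0.53, adjusted p = 1.79e-05), and Spdef, which acts in goblet and Paneth cell maturation, rose by 1.43 (SE 0.31). The third was Tcf7l2, a transcription factor of the Wnt pathway (1.40). Ephb2, a receptor of the crypt base, fell from 24.4 ± 4.65 to 5.79 ± 3.21 CPM (SD, n = 5 each; -2.08, SE 0.39, adjusted p = 8.29e-06), and Wnt3, a ligand made by Paneth cells, fell by 1.03 on the log2 scale (SE 0.31). Cd24a, a surface marker used to sort Paneth cells, fell by 0.73. Sox9, needed for Paneth cells to form (46 to 835 counts in KSR23 libraries, log2 fold change -0.01, adjusted p = 0.997), and Atoh1, the switch to secretory fate (0.56, SE 0.73, adjusted p = 0.665), did not pass. In replicates 1 to 3 alone, 1 of the 24 passed (Bhlha15), and 0 by the quasi-likelihood test of edgeR (4 at an unadjusted p under 0.05). Tcf7l2 and Cd24a, the third gene in each direction, lie outside the naming rule and were named after their values had been seen.

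Several of the 7 genes are not exclusive to Paneth cells. Goblet cells also make Itln1 and Ang4. Of 10 goblet markers 9 were higher and 1 did not pass, where 9.73% of all genes were higher and 8.76% lower. Their median log2 fold change was 1.27. The quasi-likelihood test called 8, without Clca1 (0.96, adjusted p = 0.0634), which overlapped between the groups in CPM, and upper-quartile scaling left 6. Only 3 passed in replicates 1 to 3 alone, or 1 by the quasi-likelihood test, where 3.36% and 0.812% of all genes passed. The summed level of the 10 markers was 1572 to 2206 CPM in WT libraries and 2972 to 5726 in KSR23 libraries. Muc2, the main secreted mucin, rose by 1.95 (SE 0.25, adjusted p = 2.73e-12), Retnlb by 5.88, Zg16 by 3.23 and Spdef by 1.43, while Tff3 did not pass (0.24, SE 0.28, adjusted p = 0.614). Retnlb and Zg16 were also counted among the other antimicrobial genes, and Spdef among the lineage genes. The part of goblet cells in the levels of Itln1 and Ang4 was not tested.

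Macrophages make lysozyme. Of 9 macrophage markers, 2 were higher (Cd14, 1.81, and Itgam, 1.01), 3 lower (Cd68, -1.06, C1qc, -1.0, and C1qb, -0.69) and 4 did not pass. Over all genes, 9.73% were higher and 8.76% lower. Itgam and C1qc overlapped between the groups in CPM and failed the quasi-likelihood test (adjusted p = 0.0521 and 0.0696). Leaving out 1 library at a time left 2 to 4 of the 5 calls. Cd14 and Cd68 passed each time, while C1qb passed only without KSR23 replicate 3, C1qc only without WT replicate 1 or KSR23 replicate 1, and Itgam was lost without WT replicate 3, 4 or 5 or KSR23 replicate 3 or 5. Of the stretches of Itgam, 65.2% occurred in another gene. Among those that did not pass were Csf1r (-0.26, adjusted p = 0.459) and Lyz2. The summed level of the 9 markers was 886 to 1077 CPM in WT and 652 to 876 CPM in KSR23, with Csf1r and Lyz2 as its most abundant genes. In replicates 1 to 3 alone 0 of them passed by either edgeR test (1 at an unadjusted p under 0.05). The part of macrophages in the level of Lyz1 was not tested. Of 6 stem cell markers 0 passed by either edgeR test or DESeq2, in all libraries or with edgeR in replicates 1 to 3, and 0 had an unadjusted p under 0.05 (Lgr5 0.71, SE 0.48; Olfm4 -0.35, SE 0.30), with summed levels of 397 to 523 CPM in WT and 218 to 520 CPM in KSR23. Of 8 enterocyte markers 1 was higher (Slc5a1, 1.14), 3 were lower (Fabp2, -1.19, Fabp1, -1.01, and Lct, -0.81) and 4 did not pass, among them Alpi (-0.12). The shares of all genes to set beside these counts are again 9.73% higher and 8.76% lower. The 4 that passed overlapped between the groups in CPM, Fabp1 and Lct failed the quasi-likelihood test (adjusted p = 0.0822 and 0.0627), and 0 passed in replicates 1 to 3 alone (2 at an unadjusted p under 0.05). Leaving out 1 library at a time gave 2 to 5 calls among the enterocyte markers. These lists held genes found in the tissue as labelled, with no defining marker at 0 in a library.

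Pancreatic acinar cells make digestive enzymes and are not part of the jejunum. The study, however, describes digestive enzymes as made by the jejunum too, with Ctrb1 and Cpa1 among those lower there in KSR23. Which cells made these transcripts was not tested. All 10 markers tested of 12 were lower in KSR23, where 8.76% of all genes were lower. The quasi-likelihood test called 8, with 6.91% of all genes lower. Their summed level was 102 to 235 CPM in WT libraries and 6.22 to 16.3 CPM in KSR23 libraries. In replicates 1 to 3 alone 7 passed, or 1 by the quasi-likelihood test, where 3.36% and 0.812% of all genes passed. Most of the WT sum came from Ctrb1 (mean 82.2 CPM) and Cela1 (70.6 CPM). Pnlip, with at most 3 counts in a library, and Amy2a5, with 0 in each, were not tested. Ctrb1, which encodes chymotrypsinogen, had 1996 to 3053 counts per WT library and 2 to 27 per KSR23 library. Prss2 was counted 363, 8, 11, 147 and 170 times in the WT libraries, replicates 1 to 5, and at most once per KSR23 library. Cela2a was at 2 to 78 counts in WT and at most 1 in KSR23, and Cpa1, which failed the quasi-likelihood test (adjusted p = 0.0595), at 1 to 65 in WT and at most 8 in KSR23. Sycn was at 4 to 17 counts in WT and 0 in KSR23, and Try4 at 137, 2, 2, 59 and 69 in WT replicates 1 to 5 and at most 2 in KSR23. WT replicates 2 and 3 thus stood apart from WT replicates 1, 4 and 5 in Prss2 and Try4, and also in Reg3b (29.3 and 28.8 CPM against 758, 350 and 603), while Ctrb1 was at 80.0 and 73.2 CPM in them against 80.7 to 94.5, and Sycn overlapped. In WT replicates 2 and 3 Ang4 was at 57.9 and 70.1 CPM, within or above its 54.5 to 66.0 in WT replicates 1, 4 and 5, and Mptx1 at 10.7 and 14.6 against 14.3 to 18.2 CPM. Cela1 was named after its values had been seen. Ang4 and Mptx1 were lower in the KSR23 libraries too, and the part of pancreatic tissue in their WT levels was not tested.

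**Figure D4:**
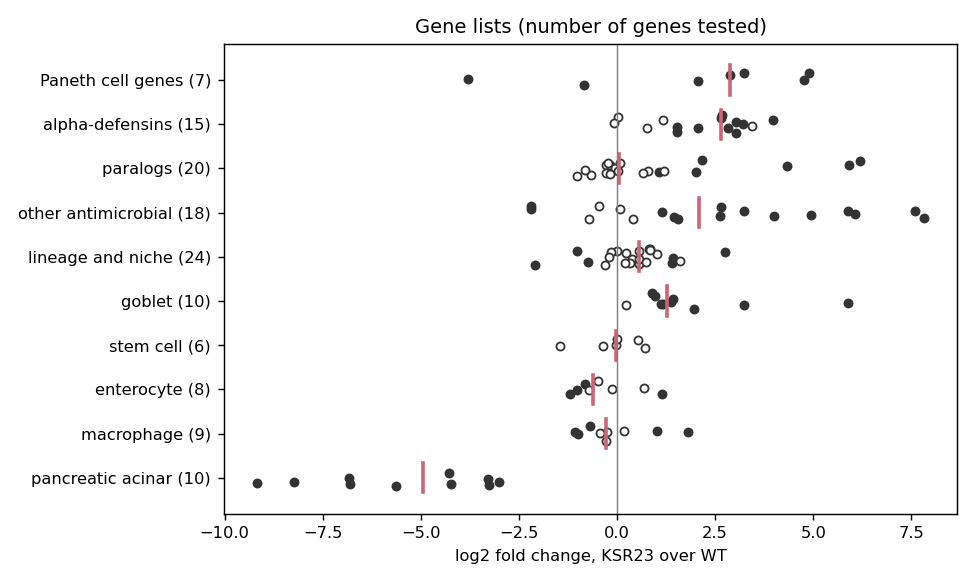
Log2 fold change of KSR23 over WT for the tested genes of 10 lists, with filled points for an adjusted p under 0.05 in the likelihood ratio test, open points otherwise and a red line at the median of each list. The medians are 2.88 for the 7 Paneth cell genes, 2.64 for the alpha-defensins and 2.1 for other antimicrobial genes, against 0.56 for lineage and niche genes.

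The 250 bases before the start were searched for 2 short motifs in the 6 genes with a RefSeq promoter (Pla2g2a was not matched). CTTTGA on either strand, the core bound by TCF/LEF factors, occurred once in Mptx1, 208 bases before its start, and in none of the other 5, against 14% of 27025 promoters of the same length. TTCNNNGAA, the site form bound by STAT factors, occurred once in Ang4, 192 bases before its start, and in none of the other 5, against 7.18% of promoters. These are matches of letters and not sites of binding.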

How the data were processed

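RNA of the jejunum of 5 WT and 5 KSR23 mice at postnatal day 5 was sequenced as single-end reads of 75 bases, after oligo-dT priming and PCR amplification with a low-input kit without molecular identifiers, so floors cover counting error only. Groups and replicate numbers come from the sample titles. According to the methods, controls were usually littermates. The labels do not tie single libraries to litters, and p-values measure the spread between these libraries.

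The deposited values were counts. According to the methods and the submitters' processing notes, the authors aligned the reads to mm10 with TopHat 2.1.0 and counted reads lying strictly within genes with HTSeq 0.6.1p1. The notes list edgeR 3.18.1, while the methods name another edgeR version for the study's tests. Deposited counts were whole numbers, neither normalized nor filtered. Reads with more than 1 alignment (8.62 to 17.1 M per library) entered no gene. The counter's totals of reads outside genes were left out. The strand setting is not given in the sources used here.

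A gene was tested if any library held at least 5 counts of it (17632 of 24062). Negative binomial models with TMM factors were fitted to all 10 libraries in edgeR 4.0.16 (R 4.3.3), with the likelihood ratio test as the main test, as in the study, and Benjamini-Hochberg adjustment over all genes. A gene is called, or passes, at an adjusted p under 0.05. The quasi-likelihood test, DESeq2 1.42.0, other scalings and filters, left-out libraries, a replicate block and a Y-linked covariate were alternatives. The quasi-likelihood test on replicates 1 to 3 was added after seeing the data. The fits were tested on simulated data. CPM used TMM-scaled totals, and a floor of 3 counts stands for 0.0492 to 0.118 CPM. RPKM divided CPM by the exon length in GENCODE M21, in which 22750 symbols (94.5%) were found. Promoters are from RefSeq (GRCm38.p6).

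The 7 genes and the lists were chosen with earlier results of these data known. Named are the 7 genes, each tested alpha-defensin and paralog, of each other list up to 4 called genes (the top 2 in each direction by log2 fold change, or genes of 1 direction where the list has no others), its defining markers, and for each of the 7 genes the 3 genes of highest within-group Pearson r. Genes named outside this rule, because a count of 5 or fewer was given, were chosen after their values were seen. A result of the alpha-defensin family is not reported here, and the counts of that list leave it out.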

Additional observations from a re-analysis of the deposited data

Results flagged for a closer look

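In 83 groups of 5 libraries (members, tested alpha-defensins and paralogs), 4 had a highest or lowest library whose gap to the next exceeded Dixon's critical value of 0.71 of the range. Chance flags about 1 in 20 groups, or 4.2 here. All 4 were alpha-defensin genes with low counts. Defa3 was at 7.55 CPM (190 counts) in KSR23 replicate 3, with the next library at 4.4 CPM. Defa5 was at 0.795 CPM (20 counts) in the same library, with the next at 0.565 CPM. Defa25 was at 0.169 CPM (6 counts) in KSR23 replicate 5 and at 0 in the other libraries of that group. Gm15299 was at 0.31 CPM (10 counts) in WT replicate 1, with the next at 0.0864 CPM. None of the 7 Paneth cell genes was among them.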

How the results depend on the processing

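No result of the 7 Paneth cell genes changed direction in 22 alternative settings. Lyz1, Mmp7, Pla2g2a, Mptx1 and Mptx2 passed in each of them, Itln1 in 21 and Ang4 in 18. Leaving out 1 library at a time gave 1 to 2 of the 7 genes lower, log2 fold changes of -0.97 to -0.75 for Ang4 (not passing without KSR23 replicate 4), 2 to 5 enterocyte markers passing (4 with all libraries) and 2 to 4 macrophage markers (5 with all libraries). Replicates 1 to 3 alone gave 579 genes passing instead of 3261, 1 of the 7 genes lower, Ang4 at -0.82, and 5 alpha-defensins, 1 lineage gene, 3 goblet, 0 enterocyte and 0 macrophage markers and 3 paralogs passing. With the quasi-likelihood test on them, 140 genes passed, 1 of the 7 genes lower, with Ang4 at -0.82 (adjusted p = 0.455), Itln1 at 2.21 (0.0969), 3 alpha-defensins, 0 lineage genes, 1 goblet, 0 enterocyte, 0 macrophage and 1 acinar marker, 4 other antimicrobial genes and 2 paralogs. The filter of 5 counts in every library left 6 alpha-defensins, 2 acinar markers and 3 paralogs, and filterByExpr 3 acinar markers, as fewer genes were tested. The quasi-likelihood test on all libraries called 2 enterocyte and 3 macrophage markers, library totals alone 3 macrophage markers, and the Y-linked covariate 3 macrophage markers and 3 paralogs, and the cause was not tested.

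Same-numbered libraries did not deviate together throughout (r from -0.692 to 0.409 over 5 pairs, 3 above 0.1, and 1 of 5 WT libraries closest to its own number), so the numbers were not taken to pair the libraries. A fit with the replicate block called 2202 genes, 1 of the 7 genes lower, 2 enterocyte and 2 macrophage markers, with Ang4 at -0.87 (adjusted p = 0.0569). Depth limits Pla2g2a in WT (9 to 25 counts) and Mptx1 in KSR23 (10 to 84 counts).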
